A study of Mus musculus with 10 samples.

Results

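The 7 genes described here encode the CARD9-BCL10-MALT1 signalling route of macrophages: the kinases Syk and Prkcd, the lipase Plcg2, the adaptors Card9 and Bcl10, the protease Malt1 and the ubiquitin ligase Traf6. They were chosen by name out of 53465 genes in the table, with the comparison of the genotypes in these libraries in view. Their differences between genotypes are therefore given as a description with standard errors and without a test. RNA-seq libraries were made from peritoneal macrophages in culture, 5 from CTR mice and 5 from Mac-GsαKO mice (KO below), both aged 6 to 8 weeks. All cells were kept in DMEM with serum and antibiotics and were given nothing else, so no library comes from cells with an added agonist of this route. By its name the Mac-GsαKO line lacks Gsα, the G protein subunit that couples receptors to cAMP synthesis, in macrophages. The driver of the deletion, the strain and the number of mice are not given in the labels, so the SD, SE and p values describe how far these libraries differ from each other, which may be technical.

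In this route a C-type lectin receptor such as Dectin-1 binds a microbial glycan, and SYK is recruited to the phosphorylated ITAM motif of the receptor or its adaptor. SYK activates PLCγ2, the diacylglycerol that PLCγ2 makes activates PKCδ, and PKCδ phosphorylates CARD9. CARD9 then nucleates filaments of BCL10 that carry MALT1, and TRAF6 links this complex to the TAK1 and IKK kinases that release NF-kappaB.

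RefSeq promoters (GRCm38.p6, from 250 bases before to 50 bases after an annotated start) were found for 6 of the 7 genes. Those of Card9 and Bcl10, the adaptor pair, are shown because they held the only match among the 6 genes to the short form of the cAMP response element (TGACG) and the only match to the NF-kappaB consensus. Letters run 5′ to 3′ along the gene's strand, and capitals mark the match.
Card9, chr2:26360860-26361159, minus strand: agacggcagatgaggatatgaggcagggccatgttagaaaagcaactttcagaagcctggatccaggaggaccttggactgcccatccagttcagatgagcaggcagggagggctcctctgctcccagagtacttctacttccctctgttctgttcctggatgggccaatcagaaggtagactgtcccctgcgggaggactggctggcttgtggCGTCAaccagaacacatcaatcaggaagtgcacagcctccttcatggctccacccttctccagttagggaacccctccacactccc
Bcl10, chr3:145924012-145924311, plus strand: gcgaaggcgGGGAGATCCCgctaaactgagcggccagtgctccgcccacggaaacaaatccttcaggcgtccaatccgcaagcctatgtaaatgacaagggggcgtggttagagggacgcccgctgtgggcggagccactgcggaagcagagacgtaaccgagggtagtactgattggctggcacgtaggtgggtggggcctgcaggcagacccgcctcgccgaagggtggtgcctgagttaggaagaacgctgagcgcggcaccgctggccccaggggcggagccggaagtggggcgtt
The short form in Card9 was on the opposite strand and began at position -36 from the start, and the NF-kappaB match in Bcl10 began at position -241. Such matches were common: over 32851 promoters of the same length, searched on both strands, 20.8% held the short form and 8.46% the NF-kappaB consensus. The core of the motif of PU.1 (GAGGAA), a macrophage transcription factor, was matched 2 times in the promoter of Traf6 and 1 time in the second promoter of Syk, and in 28.3% of all promoters. The full cAMP response element (TGACGTCA), which contains the short form, was in none of the 6 genes' promoters and in 1.79% of all. A match describes letters in this window and was not tested as a binding site.

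Libraries held between 15664243 and 18028974 counts in CTR and between 16877249 and 19235777 in KO, and a count of 0 would allow up to 3 counts, or 0.154 to 0.203 CPM (counts relative to the TMM-scaled library size), for counting error only. Gnas, the gene of Gsα, was at 435 ± 62.4 CPM (SD, n = 5) in CTR and 40.2 ± 2.62 CPM in KO. This is a count for the gene as a whole, which may include exons outside the deleted part. CTR 4 and CTR 5 stood apart from the other CTR libraries on the first principal component (both at -34.7), and CTR 4 also on the second (-46.7), so fold changes of the 7 genes and calls of the list genes are given with and without this pair where it moves them. Mitochondrially encoded genes held 1.39 to 1.97% of counts in CTR and 1.20 to 1.36% in KO. The 6 macrophage markers summed to 4992 to 5651 CPM in CTR and 5413 to 6347 in KO, and 2 of them, Csf1r and Itgam, were higher in KO at an adjusted p under 0.05. Marker sums in CTR and KO were 2.06 to 6.03 and 4.69 to 9.68 CPM for B cells (7 markers, 2 tested), 0.734 to 3.24 and 1.43 to 2.80 for T and NK cells (8, none tested), and 1.76 to 5.48 and 2.20 to 5.89 for dendritic cells (6, 2 tested). They were 19.9 to 29.9 and 15.3 to 27.3 CPM for neutrophils, with Ly6g at 0 and S100a8 the 1 marker lower in KO, 3.31 to 29.4 and 1.45 to 18.5 for mast cells, and 37.8 to 167 and 59.2 to 76.9 for mesothelial cells and fibroblasts. The part of other cells in the results below was not tested, and in bulk RNA fewer cells of a type and less RNA per cell cannot be told apart.

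All 7 genes were transcribed in every library, and all passed the filter on low counts. Levels between genes are compared as FPKM, which divides by gene length, with the mean ± SD over all 10 libraries. Syk stood highest at 32.4 ± 4.51 FPKM, followed by Prkcd at 29.9 ± 3.03 and Plcg2 at 24.5 ± 3.24. The adaptors followed, Card9 at 11.7 ± 1.94 FPKM and Bcl10 at 10.7 ± 0.698. Traf6 was at 6.65 ± 1.34 FPKM, and Malt1 was the lowest at 3.30 ± 1.09. The place of Malt1 depends on the division by gene length. In CPM its mean over all libraries was 61.8, above Traf6 (58.0), Bcl10 (53.2) and Card9 (32.6). In FPKM the kinases and the lipase at the head of the route were above the adaptors and the protease in every library. Syk exceeded Prkcd in 8 of 10 libraries and Card9 exceeded Bcl10 in 6 of 10, so neither of these neighbours was ordered beyond its spread, while each of the other 4 neighbouring pairs kept its order in 10 of 10.

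**Figure D1:**
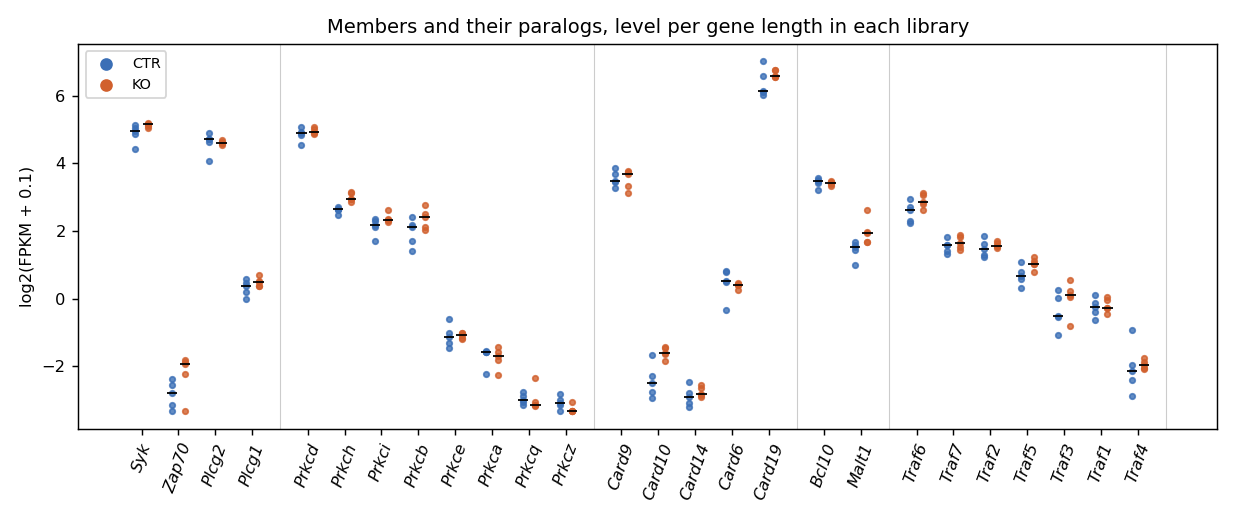
Level per gene length of the 7 genes and their paralogs as log2(FPKM + 0.1), with 1 point per library (blue CTR, orange KO) and a black bar at the median of the 5 libraries of a genotype. Syk, Prkcd, Plcg2 and Traf6 stand above their plotted paralogs in both genotypes, while Card19 stands above Card9.

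Syk, Plcg2, Prkcd and Traf6 each stood above the other genes of their family listed here, in FPKM. Zap70, the T cell relative of Syk, was at 0.085 FPKM over the 10 libraries, with 0 to 13 counts per library. Plcg1, the widely expressed relative of Plcg2, was at 1.24 FPKM. Among the other protein kinase C genes, Prkch was next to Prkcd at 6.99 FPKM, and Prkcq, the form best known from T cells, had 2 to 15 counts per library. The other TRAF genes lay below Traf6, the highest being Traf7 at 2.97 FPKM. Of the other CARD genes, Card10 was at 0.164 and Card14 at 0.043 FPKM over all libraries, both far below Card9. Card19, a small mitochondrial CARD protein, was the highest of the CARD genes listed at 92.5 FPKM. Pycard, of the same list but not plotted, was also above Card9, at 22.4 FPKM.

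Between the genotypes Malt1 had the largest log2 fold change of the 7 genes over all libraries, but this depended on the libraries. Without KO 5 it was 0.32 (SE 0.16), with Traf6 at 0.35 (SE 0.15). Without CTR 4 and CTR 5 Plcg2 was at -0.18 (SE 0.06). The values that follow are over all libraries. Of the 7 genes 4 were higher and 3 lower in value in KO, 4 differed by less than 0.1 on the log2 scale, and their median log2 fold change (KO over CTR) was 0.07, against -0.01 over all 13203 genes tested. For none of the 7 did the libraries of the genotypes separate without overlap, which 7.80% of all genes tested did. Over all genes 520 were called by edgeR's quasi-likelihood test with Benjamini-Hochberg adjustment at 0.05 (3.94%), 241 higher (1.83%) and 279 lower (2.11%), or 312 and 213 with library-size scaling alone.

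**Figure D2:**
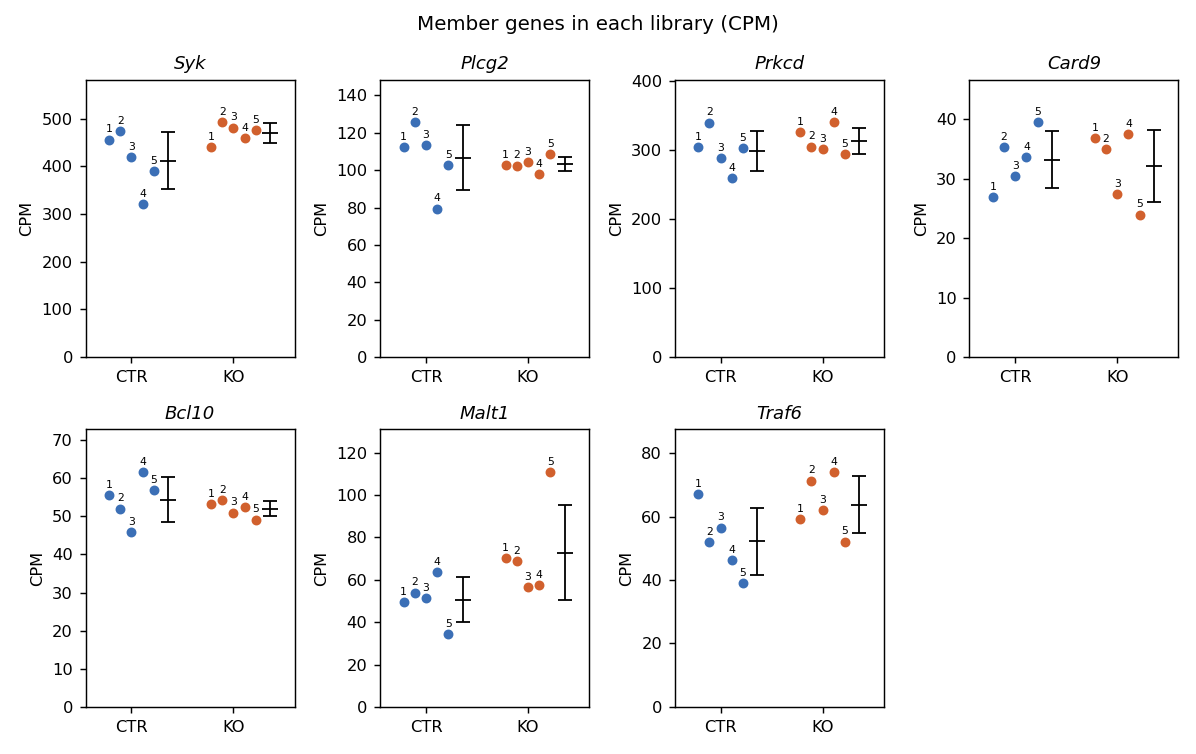
CPM of the 7 genes in each library (points, numbered by replicate, blue CTR and orange KO), with mean and SD of the 5 libraries at the right of each genotype, on axes that start at 0. The genotypes overlap in every panel, KO 5 stands above the other libraries for Malt1, and CTR 4 is the lowest library for Syk, Plcg2 and Prkcd.

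Syk (ENSMUSG00000021457), the kinase that opens the route, was at 456, 474, 420, 320 and 391 CPM in CTR 1 to CTR 5 and at 440, 493, 481, 459 and 476 CPM in KO 1 to KO 5. The lowest values were those of CTR 4 and CTR 5, and the KO range began above the level of CTR 3 and ended above all CTR libraries. The means were 412 ± 60.5 and 470 ± 20.6 CPM, a log2 fold change of 0.19 (SE 0.10). Without CTR 4 and CTR 5 it was 0.07 (SE 0.06).

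Plcg2 (ENSMUSG00000034330), the lipase below Syk, was at 112, 126, 114, 79.5 and 103 CPM in CTR 1 to CTR 5 and at 103, 102, 104, 98.1 and 108 CPM in KO 1 to KO 5. The KO libraries lay close together inside the CTR range, whose lower end was again CTR 4. The means were 107 ± 17.3 and 103 ± 3.71 CPM, a log2 fold change of -0.05 (SE 0.11), or -0.18 (SE 0.06) without CTR 4 and CTR 5.

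Prkcd (ENSMUSG00000021948), the kinase that phosphorylates CARD9, was at 304, 339, 288, 259 and 302 CPM in CTR 1 to CTR 5 and at 325, 304, 301, 340 and 294 CPM in KO 1 to KO 5. The 2 ranges coincided except for CTR 3 and CTR 4, which lay below every KO library. The means of 298 ± 29.0 and 313 ± 19.1 CPM gave a log2 fold change of 0.07 (SE 0.09), or 0.01 (SE 0.08) without CTR 4 and CTR 5.

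Card9 (ENSMUSG00000026928), the adaptor of the myeloid route, was at 26.9, 35.3, 30.4, 33.6 and 39.5 CPM in CTR 1 to CTR 5 and at 36.8, 34.9, 27.4, 37.5 and 24.0 CPM in KO 1 to KO 5. Both genotypes covered much the same range, with CTR 5 at the top and KO 5 at the bottom. The means were 33.2 ± 4.79 and 32.1 ± 6.08 CPM, a log2 fold change of -0.05 (SE 0.14), and 0.06 (SE 0.16) without CTR 4 and CTR 5. A transcript on the opposite strand, Gm13562, overlaps Card9. It had 0 to 7 counts per library, and the strand setting of the counting is not given in the sources used here.

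Bcl10 (ENSMUSG00000028191), which forms the filament, was at 55.5, 52.1, 45.8, 61.7 and 56.8 CPM in CTR 1 to CTR 5 and at 53.2, 54.2, 51.0, 52.3 and 49.2 CPM in KO 1 to KO 5. All KO libraries fell inside the CTR range, which CTR 3 and CTR 4 bounded. The means were 54.4 ± 5.90 and 52.0 ± 1.97 CPM, a log2 fold change of -0.06 (SE 0.09), and 0.03 (SE 0.08) without CTR 4 and CTR 5. With a pooled SD of 0.12 on the log2 scale within genotypes, Bcl10 and Prkcd (also 0.12) varied least of the 7 between libraries.

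Malt1 (ENSMUSG00000032688), the paracaspase that cleaves regulators of NF-kappaB and of mRNA stability, was at 49.6, 54.0, 51.5, 63.7 and 34.5 CPM in CTR 1 to CTR 5. In KO 1 to KO 5 it was at 70.4, 68.7, 56.7, 57.4 and 111 CPM. Of the KO libraries 3 lay above every CTR library, KO 3 and KO 4 lay below CTR 4, and KO 5 stood far above the rest. The means were 50.7 ± 10.5 and 72.8 ± 22.2 CPM, 1.44-fold higher in KO, with a log2 fold change of 0.52 (SE 0.20), the widest of the 7. It was 0.32 (SE 0.16) without KO 5, 0.62 (SE 0.20) without CTR 4, 0.49 (SE 0.20) without CTR 4 and CTR 5, and 0.36 (SE 0.19) when each library was adjusted for a smooth trend on gene length. At 18699 bases Malt1 has the longest gene length of the 7, as implied by the deposited FPKM, and its pooled SD within genotypes, 0.36 on the log2 scale, was also the largest.

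Traf6 (ENSMUSG00000027164), the ubiquitin ligase at the exit of the complex, was at 67.2, 52.0, 56.5, 46.2 and 39.1 CPM in CTR 1 to CTR 5 and at 59.3, 71.4, 62.0, 74.2 and 52.2 CPM in KO 1 to KO 5. KO 2 and KO 4 lay above all CTR libraries, CTR 1 lay within the KO range, and the lowest values were those of CTR 4 and CTR 5. The means were 52.2 ± 10.6 and 63.8 ± 8.99 CPM, a log2 fold change of 0.29 (SE 0.14), or 0.13 (SE 0.13) without CTR 4 and CTR 5.

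The signs for Malt1, Syk, Prkcd and Traf6 were positive in all 19 other settings of processing and library choice, with log2 fold changes of 0.32 to 0.62 for Malt1, 0.07 to 0.24 for Syk, 0.01 to 0.12 for Prkcd and 0.13 to 0.40 for Traf6. The sign changed in 5 settings for Card9, in 2 for Bcl10 and in 1 for Plcg2. KO 5, the library with the most Malt1, had the least Card9, Bcl10, Prkcd and Traf6 of the KO libraries, and CTR 5, with the least Malt1, had the most Card9 of all 10.

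Whether the 7 genes varied together between libraries of the same genotype was examined over all 21 pairs, with the genotype mean of log2 CPM removed and a two-sided exact permutation test over 14400 arrangements within genotypes. No pair had an adjusted p under 0.05, and 1 pair had an unadjusted p under 0.05. That pair was Syk and Plcg2, neighbours in the route, with Pearson's r = 0.935 (exact permutation p = 0.00667, adjusted p = 0.14) and Spearman's rho = 0.770 (exact permutation p = 0.0410). This relation rested on the outermost libraries: r was 0.586 without CTR 2 and CTR 4, and 0.507 without CTR 4 and CTR 5. The genes of the complex itself gave r = 0.378 for Card9 with Bcl10 (exact permutation p = 0.246, adjusted p = 0.601), -0.547 for Card9 with Malt1 (exact permutation p = 0.138, adjusted p = 0.601) and -0.108 for Bcl10 with Malt1 (exact permutation p = 0.776, adjusted p = 0.814). Of the 21 coefficients 8 were positive and 13 negative.

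**Figure D3:**
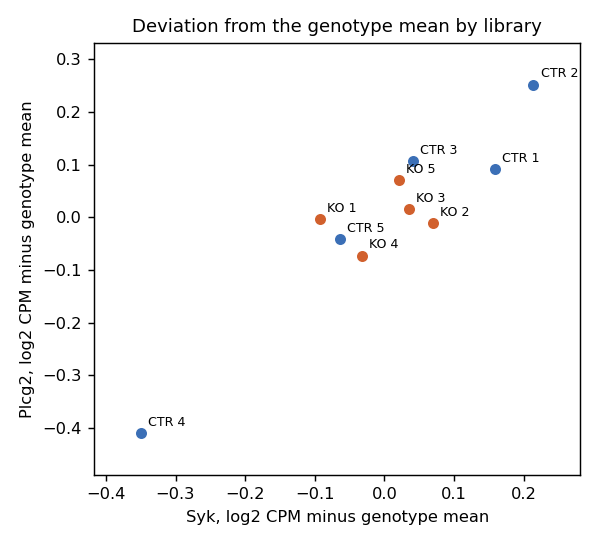
Deviation of Plcg2 from its genotype mean (vertical axis, log2 CPM) against that of Syk (horizontal axis, log2 CPM), with 1 labelled point per library, blue CTR and orange KO. CTR 4 lies alone at the lower left and CTR 2 at the upper right, and r falls from 0.935 to 0.586 without them.

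Among 8314 genes with an average log2 CPM of at least 3, the closest in this within-genotype pattern over the 10 libraries are named for the 3 genes of the complex, as a description. For Card9 they were Otud5 (r = 0.963), Fchsd1 (0.950) and Fip1l1 (0.933). For Bcl10 they were Tm9sf1 (r = 0.967), Pgp (0.946) and Fau (0.940), and for Malt1 Mvb12b (0.978), Mmp19 (0.941) and Tln1 (0.936). The 9 coefficients lay between 0.767 and 0.961 without the 2 libraries farthest from the median of Card9, Bcl10 or Malt1, and these genes share depth and library with the gene they follow. They were picked as the highest of 8314 on these same libraries. High coefficients therefore follow in part from the picking, also in the libraries that remain, and were not tested.

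The other genes of the route were taken from 9 lists of 90 genes, of which 81 were tested. These lists were drawn up by known role, but with earlier results of these data known. Their calls and p values are therefore not independent of the choice. By edgeR's quasi-likelihood test 2 were higher and 2 lower in KO at an adjusted p under 0.05, which is 4.94% of those tested beside 3.94% over all genes. At an unadjusted p under 0.05 there were 14. The share over all genes at that threshold is not given here. Neither this count nor those by list below can therefore be read as an excess or a lack. The median log2 fold change was 0.09, with 56 genes higher and 25 lower in value, and 6 of the 81 separated without overlap, a share near the 7.80% over all genes. The 9 genes not tested, each with 0 to 15 counts per library, were Zap70, Prkcq, Prkcz, Card14, Rasgrf1, Il6, Il10, Il12b and Il23a.

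**Figure D4:**
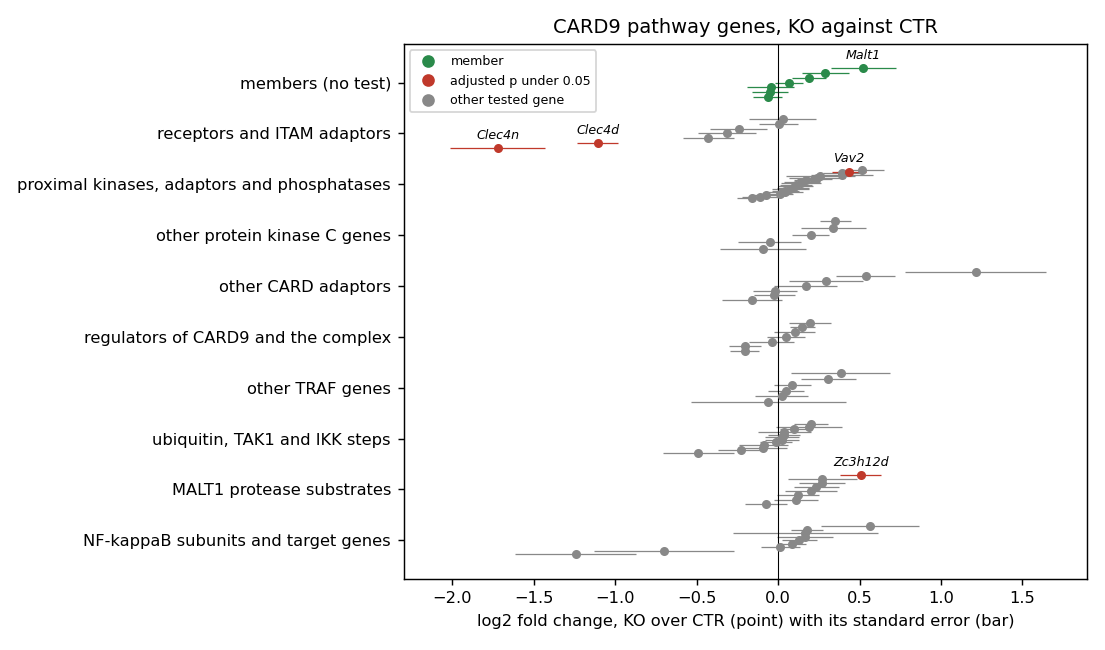
log2 fold change of KO over CTR (points) with its standard error (bars) for the 7 genes (green, no test) and the tested genes of the 9 lists (red where the adjusted p was under 0.05, gray otherwise). Clec4d lies at -1.11 and Clec4n at -1.72, and most other genes lie within 0.5 of 0.

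At the receptors, 2 of 7 genes fell, both Dectin-2 family lectins, and the list's median log2 ratio was -0.32. Clec4e, of the same family, was not called by the quasi-likelihood test (log2 ratio -0.32, SE 0.18, adjusted p = 0.327), and its genotypes overlapped. Clec4d (ENSMUSG00000030144), a receptor that pairs with Fcer1g, was at 259, 258, 302, 358 and 280 CPM in CTR 1 to CTR 5 and at 107, 130, 160, 133 and 146 CPM in KO 1 to KO 5. Every KO library lay well below every CTR library, and the fall was 2.16-fold (log2 ratio -1.11, SE 0.12, adjusted p = 0.00199). Clec4n (ENSMUSG00000023349), which encodes Dectin-2, fell 3.30-fold from 12.8 ± 5.25 to 3.88 ± 0.917 CPM (log2 ratio -1.72, SE 0.29, adjusted p = 0.0132). Its libraries ranged from 5.70 to 19.8 CPM in CTR and from 2.42 to 4.61 in KO, without overlap, and the adjusted p was 0.05001 without KO 2, the highest of a range from 1.93e-06 over the 19 other settings. Clec7a, which encodes Dectin-1, was at 641 ± 98.4 and 642 ± 76.2 CPM, a log2 ratio of 0.00 with a 95% interval of -0.27 to 0.28 (adjusted p = 0.992). Fcer1g, the ITAM adaptor and the most abundant gene of the list at 477 FPKM, had a log2 ratio of -0.43 (SE 0.16, adjusted p = 0.135), with all KO libraries below all CTR libraries, and was called by limma voom.

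Of the 20 tested kinases, adaptors and phosphatases next to Syk, 1 rose and none fell, with a median log2 ratio of 0.12. Vav2 (ENSMUSG00000009621), a guanine nucleotide exchange factor activated by SYK, was at 46.2, 47.3, 41.9, 36.6 and 34.2 CPM in CTR 1 to CTR 5 and at 61.7, 54.2, 56.4, 51.0 and 55.2 CPM in KO 1 to KO 5. The KO libraries lay above all CTR libraries (log2 ratio 0.43, SE 0.11, adjusted p = 0.0420), but this call was lost in 9 of the 19 other settings, whose adjusted p ran from 0.00349 to 0.111. Those were no filter on low counts, the replicate block, and leaving out CTR 3 or CTR 5, or 1 KO library at a time. Pik3ap1, the adaptor BCAP and the most abundant of this list at 73.5 FPKM, had a log2 ratio of 0.39 (SE 0.12, adjusted p = 0.0848), with all KO libraries above all CTR libraries, and was called by DESeq2 and voom. Pik3cd, a catalytic subunit of PI3 kinase, had a log2 ratio of 0.52 (SE 0.14, adjusted p = 0.0541) and was called by DESeq2, by voom, with the gene length trend and without CTR 4. None of the 5 tested protein kinase C genes was called, with 1 at an unadjusted p under 0.05. That gene was Prkch, at 6.04 ± 0.388 FPKM in CTR and 7.93 ± 0.695 in KO (log2 ratio 0.35, SE 0.09, adjusted p = 0.0571). Prkch was called by the DESeq2 Wald test, by limma voom, with library-size scaling, without CTR 4, and without CTR 4 and CTR 5.

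None of the 7 other CARD genes tested was called (median log2 ratio 0.17), with 2 at an unadjusted p under 0.05. Card10 was at 0.097 FPKM in CTR and 0.232 in KO (log2 ratio 1.21, SE 0.43, adjusted p = 0.126), Nod1, a sensor of bacterial peptidoglycan, was at 3.46 and 5.11 FPKM (log2 ratio 0.54, SE 0.18, adjusted p = 0.109), and Card19 had a log2 ratio of 0.17 (SE 0.19, adjusted p = 0.640). Card10 had only 3 to 20 counts per library in CTR and 18 to 29 in KO. For this gene CTR 4, at 1.35 CPM, lay within the KO range of 1.01 to 1.49 CPM. The other CTR libraries lay below that range. In other settings Card10 was called by limma voom, without CTR 4 and without CTR 4 and CTR 5. Card19 was called by voom and without CTR 4 and CTR 5. Nod1 was called by the DESeq2 Wald test, by voom and without CTR 2.

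**Figure D5:**
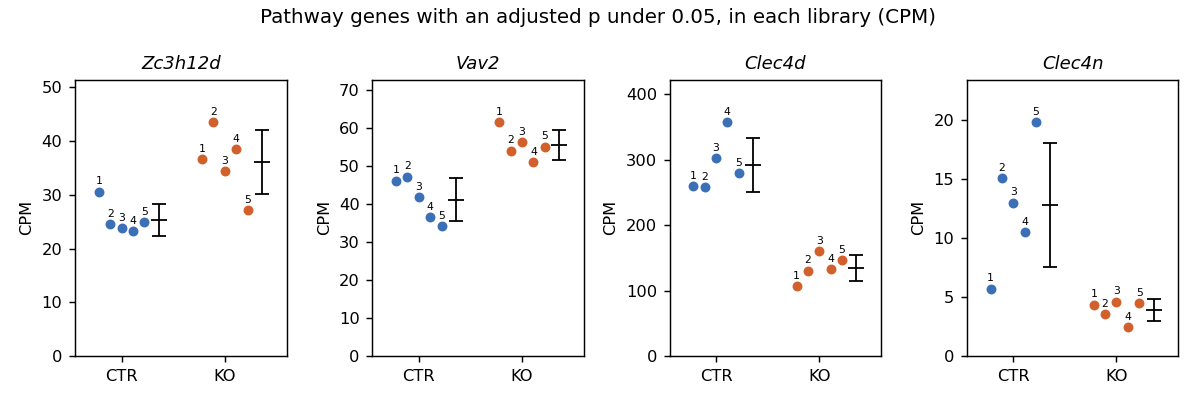
CPM in each library (points, numbered by replicate, blue CTR and orange KO) of the 4 genes of the lists with an adjusted p under 0.05, with mean and SD of the 5 libraries at the right of each genotype, on axes that start at 0. Vav2, Clec4d and Clec4n separate the genotypes, and Zc3h12d overlaps between CTR 1 and KO 5.

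Among the regulators, the TRAF genes, the ubiquitin, TAK1 and IKK steps and the MALT1 substrates, Zc3h12d was the 1 gene called by the quasi-likelihood test on all libraries. None of the 7 tested regulators of CARD9 and the complex passed (median log2 ratio 0.05), and the most abundant, Casp8, was at -0.20 (SE 0.09, adjusted p = 0.205) and the 1 with an unadjusted p under 0.05. Usp15, a deubiquitinase of CARD9, was called lower by voom, with the gene length trend and without CTR 4 and CTR 5, and DESeq2 called none of these 7. None of the 6 other TRAF genes passed (median 0.07), with Traf7 at 0.09 (SE 0.11, adjusted p = 0.692), and none of the 12 genes of the ubiquitin, TAK1 and IKK steps passed (median 0.02), with Rbck1 at 0.10 (SE 0.09, adjusted p = 0.554). At an unadjusted p under 0.05 there were 0 TRAF genes and 1 gene of the ubiquitin, TAK1 and IKK steps, and neither DESeq2 nor voom called a gene of either list. Of 8 genes whose products MALT1 cleaves, 1 rose and none fell (median 0.22). Relb, an NF-kappaB subunit that MALT1 cleaves, was not called (log2 ratio 0.27, SE 0.14, adjusted p = 0.288), but was called higher by voom and without CTR 4 and CTR 5. Zc3h12d (ENSMUSG00000039981), a relative of the RNase Regnase-1, was at 30.6, 24.5, 23.8, 23.2 and 24.9 CPM in CTR 1 to CTR 5 and at 36.7, 43.6, 34.5, 38.5 and 27.2 CPM in KO 1 to KO 5. KO 5 lay below CTR 1, and the call (log2 ratio 0.51, SE 0.13, adjusted p = 0.0484) was lost in 11 of the 19 other settings whose adjusted p ran from 0.00719 to 0.133, among them the fit without CTR 4 and CTR 5 (0.46, adjusted p = 0.0864). Those 11 were also no filter on low counts, the replicate block and leaving out CTR 2, CTR 3, CTR 4, CTR 5 or any 1 of KO 1 to KO 4. Zc3h12a, which encodes Regnase-1 itself, was the most abundant of these at 8.86 FPKM (log2 ratio 0.12, SE 0.13, adjusted p = 0.606).

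At the end of the route, none of the 9 tested NF-kappaB subunits and target genes was called (median log2 ratio 0.13). Rela, the p65 subunit and the most abundant of them at 33.1 FPKM, had a log2 ratio of 0.09 with a 95% interval of -0.11 to 0.28 (adjusted p = 0.579). The chemokine gene Cxcl1 had the lowest p of this list (log2 ratio -1.24, SE 0.37, adjusted p = 0.0801), at 1.34 ± 0.844 FPKM in CTR and 0.573 ± 0.219 in KO. It was the 1 gene of this list with an unadjusted p under 0.05. DESeq2 called Cxcl1, and voom called Cxcl1 and Tnf.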

How the data were processed

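Raw counts for each Ensembl gene and FPKM values, both as deposited by the authors, were used for 5 CTR and 5 Mac-GsαKO libraries. Per the submitters' processing notes, CASAVA 1.8, HISAT2, SAMtools 1.3.1, edgeR and the build GRCm39 were used. For the counter, annotation and strand setting the sources used here give no name. Gene lengths were worked out from the deposited FPKM and counts, in the library with the most counts of each gene. With these lengths the deposited FPKM of all libraries equalled counts over length and library total, within 9.65e-06 at 50 or more counts. The lengths were not checked against an annotation. Symbols were matched for 53274 of 53465 genes, and the other 191 held 0.0403% of the counts.

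Counts were fitted with edgeR 4.0.16 in R 4.3.3 (limma 3.58.1): filterByExpr, which left 13203 genes, TMM scaling, and a two-sided quasi-likelihood test of genotype, with no other term. Benjamini-Hochberg adjustment covered all genes tested (threshold 0.05). SE was taken as |log2 fold change| divided by √F. CPM use TMM-scaled sizes, and correlations used log2 CPM with a prior count of 2. The procedure was tested on simulated data. Other settings were DESeq2 1.42.0 size factors and Wald test, library size only, other filters, limma voom with quality weights, a trend on gene length (mgcv 1.9.3), the replicate block, and libraries left out. The 7 genes, the lists and the tests were chosen with earlier results of these data known. Named genes were the 7, Gnas, the called genes and the most abundant gene of each list, the paralogs of the 7 (the listed CARD, protein kinase C and TRAF genes, Zap70 and Plcg1), and the 3 closest genes to Card9, Bcl10 and Malt1. Of genes outside this rule, Csf1r, Itgam, S100a8, Ly6g, Clec7a, Clec4e, Pik3cd, Usp15, Relb, Tnf and Cxcl1 are named after their values were seen. Some list genes are not reported here and were left out of the list counts.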

Additional observations from a re-analysis of the deposited data

Results flagged for a closer look

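Among the 7 genes, the 4 called genes of the lists and Gnas, each genotype's highest and lowest library was set against the others, 24 groups of 5 in all. In 2 of them a gap exceeded Dixon's 95% critical value of 0.71, which chance alone exceeds in about 1 in 20 groups. Malt1 in KO 5, at 111 CPM, lay above the next KO library at 70.4 CPM by 0.748 of the range. Zc3h12d in CTR 1, at 30.6 CPM, lay above the next CTR library at 24.9 CPM by 0.772 of the range.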

How the results depend on the processing

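All 133 values of the 7 genes under the 19 other settings moved by less than 1 within-genotype SD. That bound is wide: leaving out 1 of 5 libraries can hardly move a fold change so far. Card9, Bcl10 and Plcg2 changed sign in some settings while staying within it. No pair of the 7 genes reached an adjusted p under 0.05 without CTR 4 and CTR 5 or with library-size scaling. The number of genes called over all genes, 520, was 261 with no filter on low counts, 1289 with the DESeq2 Wald test, 1919 with limma voom, 1185 without CTR 4 and CTR 5, and between 62 (without KO 2) and 868 (without CTR 4) when 1 library was left out. Leaving out CTR 3 gave 121, KO 1 gave 131, KO 3 gave 320 and KO 4 gave 127. The 2 list genes called higher, Vav2 and Zc3h12d, became 0, 6, 10 and 5 genes under the first 4 of these settings and 0 to 4 with 1 library left out (0 without CTR 3, CTR 5 or any of KO 1 to KO 4). The 2 called lower became 3 with the DESeq2 Wald test, with the gene length trend, and without CTR 4 and CTR 5. Their number was 5 with limma voom and 1 to 2 with 1 library left out. With the replicate number as a block (replicate block) 104 genes were called, 0 list genes higher and 2 lower. Libraries with equal numbers showed no shared pattern over all genes: their residuals correlated between -0.126 and 0.0582, and 0 libraries correlated best with their own number. With so few libraries a weak or partial pairing could not be seen. The causes of these shifts were not tested.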
